A study of Homo sapiens with 76 samples.

Results

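Trichostatin A (TSA) and oxamflatin are small molecules that block histone deacetylases, and both carry a hydroxamic acid group. In TSA this group ends a branched diene chain that bears an aromatic ketone, whereas oxamflatin has an enyne chain on an aromatic sulfonamide. The cells described here were chosen by their agent labels, TSA at 20 ng/ml and oxamflatin at 1 µM, and make up 4 of the 76 samples. Each compound was set against the same 2 DMSO vehicle samples, and all 61 panel genes were described. A biomarker panel for DNA damage was measured by RT-qPCR in TK6 cells after 4 h of exposure to 29 treatments and 9 vehicle controls, in 2 replicates each. TSA and oxamflatin were labelled non-DDI, the class of agents that do not induce DNA damage. TK6 is an established human B lymphoblastoid line with functional p53. Treated cells and DMSO controls were the same line, for which no transgene or deletion is described, exposed in exponential growth at 37°C. Replicates came from exposures on separate occasions. The doses were those that had most induced ATF3, GADD45A and CDKN1A in an earlier study while cells stayed viable, so CDKN1A and GADD45A had a part in setting them. Since the doses differ and each compound was measured at 1 dose, 0 pairs were compared at a matched dose, and the values of both compounds stand side by side with no test between them.

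Histone deacetylases remove acetyl groups from lysines of histone tails and of other proteins, and hydroxamic acids block the classical enzymes by holding the zinc ion in their active site. Acetylated chromatin is more open to transcription factors, and blocking these enzymes in cell lines is known to raise some genes and lower others within hours. CDKN1A encodes p21, which halts the cell cycle, and is a textbook gene raised by such inhibitors through GC boxes in its promoter without need of p53.

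For 4 of the genes on which the results turn, the 250 bases before the gene start are shown as examples of the windows in which GC boxes were counted. They were taken from RefSeq on GRCh38.p14 and run 5′ to 3′ on the gene's own strand. Capitals mark the letters of the GC box, which were searched as GGGCGG, together with those of the CCAAT box, and both motifs were searched on either strand. PTGER4 lies at chr5:40679665-40679914 on the plus strand, SEL1L at chr14:81533854-81534103 on the minus strand, CDKN1A at chr6:36678464-36678713 on the plus strand and COIL at chr17:56961051-56961300 on the minus strand.
PTGER4: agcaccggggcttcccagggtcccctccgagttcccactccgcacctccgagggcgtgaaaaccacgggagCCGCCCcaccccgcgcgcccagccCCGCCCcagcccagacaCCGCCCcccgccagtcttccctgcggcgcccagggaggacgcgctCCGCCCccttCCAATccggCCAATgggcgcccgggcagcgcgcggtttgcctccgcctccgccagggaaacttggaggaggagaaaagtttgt
SEL1L: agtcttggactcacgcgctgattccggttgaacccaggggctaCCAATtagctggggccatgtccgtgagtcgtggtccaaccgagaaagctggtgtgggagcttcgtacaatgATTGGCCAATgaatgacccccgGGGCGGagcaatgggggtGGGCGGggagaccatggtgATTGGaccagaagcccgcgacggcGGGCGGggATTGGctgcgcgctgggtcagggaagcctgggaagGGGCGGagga
CDKN1A: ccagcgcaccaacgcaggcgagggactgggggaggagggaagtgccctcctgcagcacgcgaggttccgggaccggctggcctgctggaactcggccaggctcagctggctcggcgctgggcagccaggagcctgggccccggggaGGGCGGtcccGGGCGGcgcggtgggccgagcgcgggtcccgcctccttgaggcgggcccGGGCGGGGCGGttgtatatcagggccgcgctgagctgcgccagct
COIL: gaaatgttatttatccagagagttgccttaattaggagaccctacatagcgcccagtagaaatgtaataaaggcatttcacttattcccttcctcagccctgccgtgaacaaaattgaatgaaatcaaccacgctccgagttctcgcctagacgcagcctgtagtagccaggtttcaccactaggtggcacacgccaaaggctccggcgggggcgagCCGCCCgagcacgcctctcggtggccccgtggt
The PTGER4 window held 4 GC boxes and 2 CCAAT boxes, SEL1L held 4 and 5, CDKN1A held 4 GC boxes, the last pair of which share a base, and COIL held 1 GC box. Of the genes higher in oxamflatin, B3GNT2 and DUSP14 held 5 GC boxes, and PTGER4, SEL1L and CDKN1A 4. BTG2, C12orf5 and DAAM1 held 3, ID2 and RAPGEF2 2, PLK3 1 and ITPR1 0. Of those lower, AMER1 held 3, BLOC1S2 2, AEN, COIL and DCP1B 1, and LCE1E and TOPORS 0. Any link between the number of boxes and the direction was not tested. Over all 27305 promoter windows of this length, 42.3% held a GC box and 33.0% a CCAAT box. Of the 61 panel genes 48 had a window, and 33 of these held a GC box. A match describes the letters only, and no binding was measured.

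Each sample's level of a gene is given as −ΔCq, the mean Cq of the reference genes HPRT and GUSB minus the Cq of the gene, where Cq is the PCR cycle at which the signal crosses its threshold. It is a log2 scale on which a higher value means more mRNA, and differences of −ΔCq are given as log2 fold changes. In the 6 samples HPRT had a Cq of 22.53 to 23.25 and GUSB of 23.95 to 24.28, and the panel lay between 21.62 and 37.55 cycles, with no value missing or over 40 cycles. GUSB minus HPRT was 1.42 and 1.30 cycles in DMSO, 1.35 and 1.22 in TSA, and 1.08 and 0.89 in oxamflatin, so the reference genes moved apart by 0.375 cycles between DMSO and oxamflatin. The median SD between replicates over the panel was 0.053 cycles for TSA, 0.053 for oxamflatin and 0.113 for DMSO. For 11 genes, C12orf5, CCP110, DCP1B, DDB2, HIST1H2BG, MDM2, PHLDA3, PPM1D, PRKAB1, TOPORS and TRIAP1, the Cq of DMSO replicate 2 was the same to the last digit as that of medium vehicle replicate 2, whereas no other pair that included any of the 6 samples shared more than 4 genes. Of all 2850 pairs of the 76 samples, 5 others shared over 4 genes, up to 50 of 61 between the EtOH and acetonitrile vehicles in either replicate. MeOH vehicle replicate 1, a control of HC toxin, shared 19 genes with each of these vehicles. The calls without these genes are given beside the results below. DMSO also differed from the mean of the other 8 vehicle conditions in 9 genes by limma, 7 higher and 2 lower.

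TSA moved almost none of the panel away from DMSO. Of 61 genes, 1 passed an adjusted p of 0.05 (1.64%), the histone gene HIST1H2BG, which was lower, and 0 were higher (0%). Before adjustment 2 genes were under 0.05 (3.28%), HIST1H2BG and USP41. The log2 fold change lay within 0.2 of 0 for 54 of 61 genes, and its median over the panel was −0.05. The 95% interval stayed within 0.5 of 0 for 31 genes and within 1 for 50, and it reached past 1 for the other 11. Both TSA replicates lay outside the DMSO pair in 16 genes (26.2%), 15 of them lower (24.6%) and 1 higher (1.64%), which was PRKAB2, a subunit of the energy sensor AMPK.

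**Figure D1:**
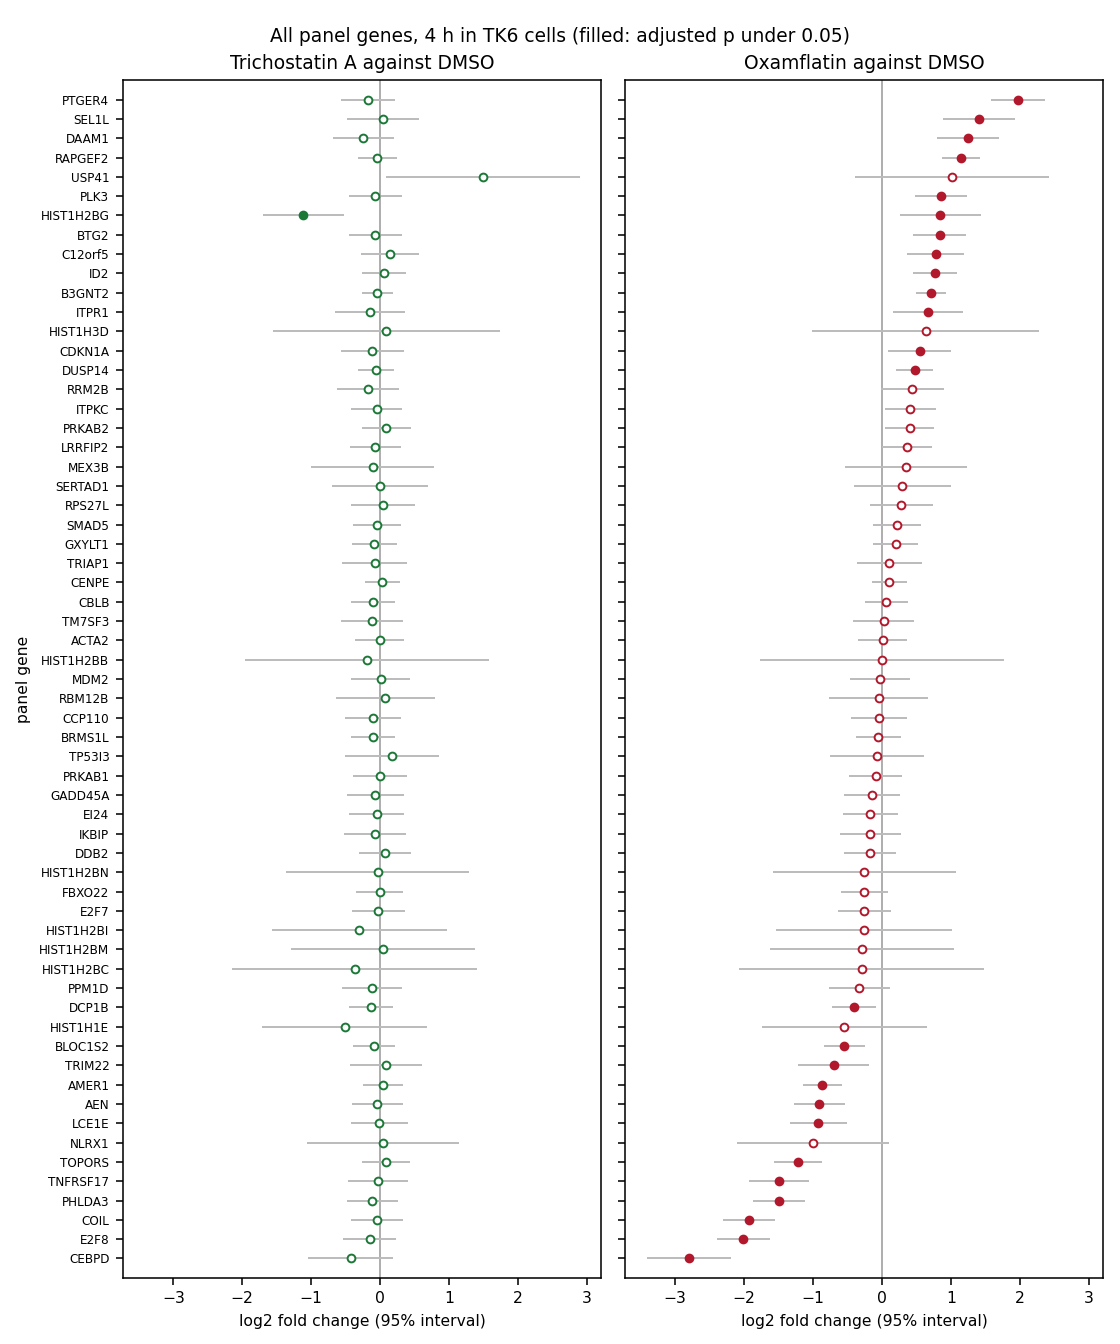
Log2 fold change of all 61 panel genes in TSA (left) and oxamflatin (right) against DMSO, with 95% intervals from limma (n = 2 replicates per group), genes ordered by their value in oxamflatin, and filled points past an adjusted p of 0.05. The TSA points lie along 0 apart from HIST1H2BG at −1.11 and USP41 at 1.49, while the oxamflatin points run from 1.98 for PTGER4 to −2.80 for CEBPD.

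HIST1H2BG encodes a histone H2B, a protein of the nucleosome core. Its −ΔCq was −1.89 and −1.74 in DMSO and −2.66 and −3.20 in TSA. Both TSA values lay below both DMSO values, with a log2 fold change of −1.11 (SE 0.29, limma adjusted p = 0.0279). This gene is among those whose DMSO replicate 2 equals the medium sample, and DMSO stood above the other 8 vehicles in it by 1.16 (SE 0.219, limma adjusted p = 0.000266). Against the mean of all vehicles TSA was at −0.08 (limma adjusted p = 0.8), and with only the 6 samples in the fit the adjusted p was 0.187. The call was also lost without TSA replicate 2 (−0.84, limma adjusted p = 0.985), without DMSO replicate 1 (−1.19, adjusted p = 0.0646) and without DMSO replicate 2 (−1.04, adjusted p = 0.397), and over 15 alternatives the adjusted p ran from 0.00294 to 0.985.

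USP41 is named in the panel as a deubiquitinase gene and is listed by RefSeq as a pseudogene, USP41P. Its −ΔCq was −9.00 and −12.80 in DMSO, −9.71 and −9.11 in TSA, and −9.55 and −10.21 in oxamflatin. The DMSO replicates were farther apart than those of any other gene in these 3 groups (SD 2.69), and the TSA values lay between them, so the log2 fold change of 1.49 (SE 0.70, limma adjusted p = 0.994) did not pass. Without DMSO replicate 1 it was 3.39 and passed (limma adjusted p = 0.000923), as the lone remaining value is then the lowest DMSO reading.

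The genes that set the dose did not pass the test in TSA. CDKN1A had a −ΔCq of −1.09 and −1.28 in DMSO, −1.37 and −1.23 in TSA, and −0.66 and −0.62 in oxamflatin. The TSA and DMSO pairs overlapped, and the 95% interval of the log2 fold change in TSA ran from −0.57 to 0.35. GADD45A, which takes part in growth arrest and repair, was at −0.07 in TSA and −0.15 in oxamflatin, neither past the test. DMSO was 0.50 above the other vehicles in GADD45A (limma adjusted p = 0.0165). Against the mean of all vehicles TSA was at 0.37. Over the alternatives oxamflatin ran from −0.335 to 0.294, and neither compound passed in any. Genes with large changes in oxamflatin stayed close to DMSO in TSA. PTGER4 was at −0.18 in TSA (95% interval −0.57 to 0.21) and E2F8 at −0.15 (−0.53 to 0.23). COIL was at −0.04 (−0.42 to 0.33) and PHLDA3 at −0.11 (−0.49 to 0.26). CEBPD, a transcription factor of the stress response, was at −0.43 in TSA (−1.04 to 0.18), and both TSA values lay below both DMSO values without passing the test (limma adjusted p = 0.994).

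Oxamflatin changed 25 of the 61 genes (41.0%), 13 higher (21.3%) and 12 lower (19.7%), and 27 were under 0.05 before adjustment (44.3%). The median absolute log2 fold change was 0.403, against 0.077 for TSA on the same DMSO samples. Both oxamflatin replicates lay outside the DMSO pair in 44 genes (72.1%), 24 above (39.3%) and 20 below (32.8%). The split between higher and lower moved with the reference gene, from 13 and 12 to 17 and 9 with HPRT alone, 9 and 14 with GUSB alone, 17 and 10 with the panel median, and 20 and 11 against the mean of all vehicles. These choices shifted the median of the panel from −0.03 to 0.16, −0.21, 0.06 and 0.15. With the 11 genes of repeated Cq left out, 19 of 50 genes passed, 10 higher and 9 lower.

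**Figure D2:**
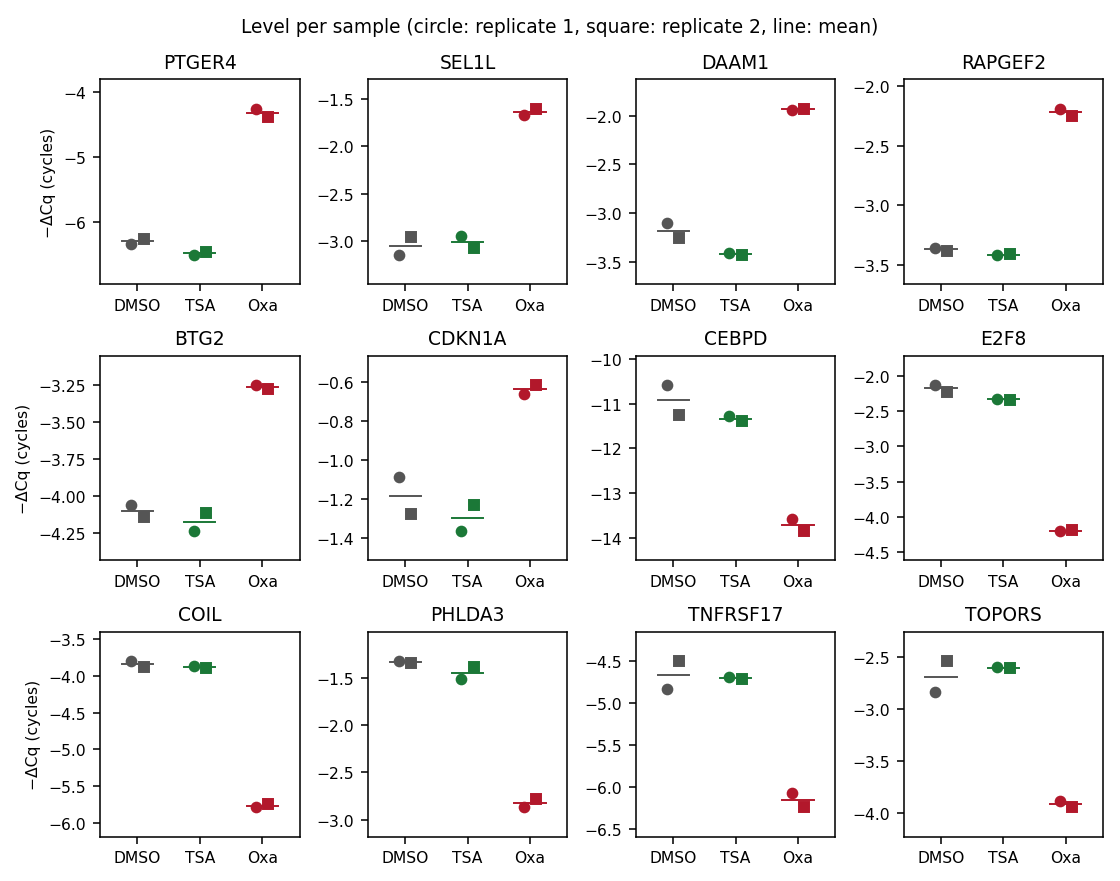
−ΔCq in cycles of 12 genes in the 2 DMSO, 2 TSA and 2 oxamflatin (Oxa) samples, on a separate vertical scale for each gene, with circles for replicate 1, squares for replicate 2 and lines for the mean. In all 12 genes both oxamflatin samples lie on the same side of all 4 DMSO and TSA samples, above them in the first 6 genes and below them in the last 6.

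Signalling genes were the group with the most higher calls in oxamflatin. Of 12 genes 6 rose, 2 fell and 4 did not pass (66.7% called, against 41.0% of the panel), with a median log2 fold change of 0.44, and in TSA none of the 12 passed. PTGER4, the EP4 receptor for prostaglandin E2, which signals through cyclic AMP, had −6.34 and −6.26 in DMSO, −6.51 and −6.46 in TSA, and −4.26 and −4.39 in oxamflatin. It was the highest gene of the panel in oxamflatin, 3.94-fold above DMSO (log2 1.98, SE 0.19, limma adjusted p = 1.77e-11), and its oxamflatin replicates stood clear of the other 4 samples. DMSO was itself 0.64 below the other vehicles in PTGER4 (SE 0.145, limma adjusted p = 0.00222), and over the alternatives tried the change in oxamflatin ran from 1.41 to 2.17, past the test in each.

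DAAM1, a formin that links Wnt signals to the actin cytoskeleton, had −3.10 and −3.26 in DMSO, −3.42 and −3.43 in TSA, and −1.94 and −1.93 in oxamflatin. The oxamflatin values lay above all others, a log2 fold change of 1.25 (SE 0.22, limma adjusted p = 6.89e-06). RAPGEF2, an exchange factor that switches on Rap GTPases, had −3.36 and −3.38 in DMSO, −3.42 and −3.41 in TSA, and −2.19 and −2.26 in oxamflatin. It rose by 1.15 (SE 0.14, limma adjusted p = 4.21e-09), with the 4 DMSO and TSA samples close together. DMSO was 0.35 above the other vehicles in RAPGEF2 (limma adjusted p = 0.014), and over the alternatives the rise ran from 0.96 to 1.46.

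Among the others that rose, ID2, an inhibitor of basic helix-loop-helix transcription factors and a target of BMP signals, was higher by 0.77 (limma adjusted p = 7.57e-05), at 1.01 and 1.09 in oxamflatin against 0.22 and 0.34 in DMSO. ITPR1, the receptor through which inositol trisphosphate releases calcium from the endoplasmic reticulum, was higher by 0.67 (SE 0.25, limma adjusted p = 0.0298), and its call was lost with GUSB alone as the reference, with p-values adjusted over both compounds, and without either oxamflatin replicate or DMSO replicate 2, over a range of 0.48 to 0.92. DUSP14, a phosphatase of MAP kinases, was higher by 0.47 (SE 0.13, limma adjusted p = 0.00244). These genes act in separate pathways, and no downstream readout was measured.

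The signalling genes that fell were TNFRSF17 and AMER1. TNFRSF17 encodes BCMA, a receptor of late B cells and plasma cells, and is the panel gene that fits the labelled B lymphoblastoid origin, with a Cq of 28.07 and 27.87 in DMSO. ACTA2, a gene of smooth muscle listed here with the p53 targets, had an earlier Cq of 26.49 and 26.51 in DMSO. The panel by itself therefore does not mark the cell type. The −ΔCq of TNFRSF17 was −4.83 and −4.50 in DMSO, −4.69 and −4.71 in TSA, and −6.07 and −6.25 in oxamflatin. TSA lay inside the DMSO pair and oxamflatin lay below it by 1.49 (SE 0.22, limma adjusted p = 1.69e-07). In total RNA of a single line, less mRNA in each cell and fewer cells that express the gene cannot be told apart. AMER1, a membrane protein that restrains Wnt signalling, fell by 0.87 (SE 0.14, limma adjusted p = 1.62e-06), at −4.76 and −4.87 in oxamflatin against −4.07 and −3.82 in DMSO. Of the signalling genes that did not pass, ITPKC, PRKAB2, SMAD5 and CBLB were at 0.41, 0.40, 0.21 and 0.06.

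The transcription and cell cycle genes that changed in oxamflatin all fell, 3 of 7 (42.9%, against 41.0% of the panel called and 19.7% lower), and 4 did not pass. CEBPD had −10.58 and −11.25 in DMSO, −11.29 and −11.40 in TSA, and −13.58 and −13.86 in oxamflatin. This is the largest change of either compound, 6.98-fold lower (log2 −2.80, SE 0.30, limma adjusted p = 2.28e-10). CEBPD was near the end of the usable range, with a Cq of 33.82 and 34.62 in DMSO and of 37.06 and 37.55 in oxamflatin, where few template molecules are left and precision falls.

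E2F8, an atypical E2F that represses genes of DNA replication, had −2.13 and −2.23 in DMSO, −2.33 and −2.34 in TSA, and −4.20 and −4.19 in oxamflatin. It fell 4.03-fold (log2 −2.01, SE 0.19, limma adjusted p = 1.46e-11), and the oxamflatin replicates nearly coincided. DMSO was itself 0.44 above the other vehicles in E2F8 (limma adjusted p = 0.0219). Over the alternatives the log2 fold change of E2F8 in oxamflatin ran from −2.20 to −1.62, past the test in each. E2F7, its close relative and a p53 target, was at −0.26 in oxamflatin and did not pass (limma adjusted p = 0.329). TOPORS, a ligase for ubiquitin and SUMO that binds topoisomerase I and p53, had −2.84 and −2.54 in DMSO, −2.59 and −2.61 in TSA, and −3.88 and −3.94 in oxamflatin, a fall of 1.22 (SE 0.17, limma adjusted p = 1.28e-07). BRMS1L, a subunit of the SIN3 complex that holds the deacetylases HDAC1 and HDAC2, was at −0.05 in oxamflatin and −0.10 in TSA, within 95% intervals of −0.38 to 0.27 and −0.43 to 0.22. CENPE, a kinesin of the mitotic spindle, CCP110, a cap protein of centrioles, and SERTAD1, a cell cycle regulator, were at 0.10, −0.05 and 0.30 in oxamflatin.

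Of the 4 genes of RNA metabolism 2 fell in oxamflatin and 0 rose (50.0% called, against 41.0% of the panel called and 19.7% lower). COIL encodes coilin, the scaffold of the Cajal body, where small nuclear RNAs are modified and assembled. It had −3.80 and −3.88 in DMSO, −3.87 and −3.90 in TSA, and −5.79 and −5.75 in oxamflatin. The DMSO and TSA samples lay close together, and oxamflatin was 3.80-fold lower (log2 −1.93, SE 0.19, limma adjusted p = 1.51e-11). DCP1B, a cofactor of mRNA decapping, was lower by 0.40 (SE 0.16, limma adjusted p = 0.0378), and its call was lost in 7 of 15 alternatives, among them without oxamflatin replicate 2 (−0.21) or DMSO replicate 1 (−0.31), while MEX3B and RBM12B, which bind RNA, were at 0.35 and −0.05 and did not pass.

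The p53 targets moved in both directions in oxamflatin. Of 21 genes 4 rose, 3 fell and 14 did not pass (33.3% called, against 41.0% of the panel), with a median of −0.07, and in TSA 0 of 21 passed and all lay between −0.17 and 0.17. Those that rose were PLK3, BTG2, C12orf5 and CDKN1A. PLK3, a stress kinase, had −4.28 and −4.24 in DMSO and −3.45 and −3.37 in oxamflatin, a rise of 0.85 (SE 0.19, limma adjusted p = 0.000208). BTG2, which slows proliferation and recruits the mRNA deadenylase, had −4.06 and −4.14 in DMSO and −3.25 and −3.28 in oxamflatin, a rise of 0.84 (SE 0.19, limma adjusted p = 0.000277).

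C12orf5, now TIGAR, slows glycolysis by lowering a fructose bisphosphate and rose by 0.78 (SE 0.21, limma adjusted p = 0.00155). Its DMSO replicates of −2.40 and −2.05 were farther apart than its oxamflatin replicates of −1.44 and −1.45, it is a gene of repeated Cq, and without DMSO replicate 1 it was at 0.61 with an adjusted p of 0.0523, the highest of 15 alternatives (lowest 1.05e-06). CDKN1A rose by 0.55 (SE 0.23, limma adjusted p = 0.0494), or 1.46-fold. Both oxamflatin values of CDKN1A lay above all DMSO and TSA values, yet the call was lost in 7 of 16 alternatives, among them leaving out any sample of oxamflatin or DMSO, with the log2 fold change between 0.36 and 0.74 over all of them.

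PHLDA3, AEN and TRIM22 were the p53 targets that fell. PHLDA3, which competes with the kinase Akt for membrane lipids and so restrains it, had −1.32 and −1.34 in DMSO, −1.51 and −1.38 in TSA, and −2.87 and −2.79 in oxamflatin. The fall was 2.82-fold (log2 −1.50, SE 0.18, limma adjusted p = 5.04e-09), and PHLDA3 is one of the genes of repeated Cq, although its DMSO replicates nearly coincided. AEN, a nuclease that promotes apoptosis, had −1.37 and −1.63 in DMSO and −2.44 and −2.38 in oxamflatin, a fall of 0.91 (SE 0.18, limma adjusted p = 6.62e-05). TRIM22, an antiviral ligase also induced by interferon, fell by 0.70 (SE 0.26, limma adjusted p = 0.0255), a call lost with HPRT alone, with the panel median and without either oxamflatin replicate or DMSO replicate 2 (−0.89 to −0.47 over all alternatives).

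MDM2, the ligase that degrades p53 and is itself its target, was at −0.03 in oxamflatin (95% interval −0.46 to 0.40) and 0.01 in TSA (−0.42 to 0.44). PPM1D, a phosphatase that shuts off the p53 response, was at −0.33 in oxamflatin, and RRM2B, a p53-inducible subunit of ribonucleotide reductase, at 0.44, the extremes of the 14 that did not pass. DMSO was 0.59 above the other vehicles in RRM2B (limma adjusted p = 0.0104), so its value depends on the vehicle taken as the reference.

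The remaining genes of organelles and membranes showed 2 higher and 2 lower of 9 in oxamflatin (44.4% called, against 41.0% of the panel, 21.3% higher and 19.7% lower). SEL1L, the adaptor of the HRD1 ligase that clears misfolded proteins from the endoplasmic reticulum, had −3.14 and −2.95 in DMSO, −2.95 and −3.07 in TSA, and −1.67 and −1.61 in oxamflatin. TSA overlapped the DMSO pair and oxamflatin lay above it by 1.41 (SE 0.26, limma adjusted p = 1.44e-05), or 2.65-fold. B3GNT2, which extends poly-N-acetyllactosamine chains on glycoproteins, rose by 0.71 (SE 0.11, limma adjusted p = 6.29e-07), from −1.17 and −1.06 to −0.41 and −0.40.

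LCE1E, a gene of the cornified envelope of skin, was low in these cells, with a Cq of 31.01 and 31.07 in DMSO, and fell by 0.92 in oxamflatin (SE 0.21, limma adjusted p = 0.00023). DMSO was 0.64 above the other vehicles in LCE1E (limma adjusted p = 0.00374), and against the mean of all vehicles the fall was 0.36. BLOC1S2, a subunit of the complex that builds lysosome-related organelles, fell by 0.55 (SE 0.15, limma adjusted p = 0.00208) and lost its call with HPRT alone. NLRX1, a mitochondrial NOD-like receptor, had −3.72 and −3.70 in oxamflatin against −2.83 and −2.58 in DMSO, 2.00-fold lower with groups that did not overlap, yet its spread over the whole study was wide (SE 0.55) and it did not pass (limma adjusted p = 0.153).

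Histone genes, whose mRNAs are made mainly in S phase, were noisier than the other genes, least so in DMSO. Their median SD between replicates was 0.392 in TSA, 0.70 in oxamflatin and 0.177 in DMSO, against 0.046, 0.046 and 0.099 for the other genes. In TSA 1 of 8 passed and was lower, and in oxamflatin 1 of 8 passed and was higher (12.5% each, against 1.64% of the panel in TSA and 41.0% in oxamflatin), and both times it was HIST1H2BG. The median standard error of the histone genes was 0.66, against 0.175 for the signalling genes. In oxamflatin HIST1H2BG stood at −0.98 and −0.96, above the DMSO values of −1.89 and −1.74, with a log2 fold change of 0.85 (SE 0.29, limma adjusted p = 0.0172) that lost its call with GUSB alone and without DMSO replicate 1 or either oxamflatin replicate (0.66 to 1.88 over all alternatives). The other 7 histone genes ranged from −0.51 to 0.09 in TSA and from −0.55 to 0.63 in oxamflatin, with standard errors of 0.59 to 0.88.

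The spread of the histone genes was shared between genes of a sample. All 8 were higher in TSA replicate 1 than in replicate 2, 7 of 8 in oxamflatin and 5 of 8 in DMSO, by a median of 0.56, 0.99 and 0.25 cycles, while the median over the other 53 genes differed by 0.04 cycles or less between replicates. HIST1H2BC, for example, had −3.53 and −4.09 in TSA, −2.96 and −4.51 in oxamflatin and −3.11 and −3.77 in DMSO. Over all 38 conditions the median SD within a condition was 0.518 for histone genes and 0.113 for the others. Copies of H2B genes are nearly identical, and whether each assay reads only its own copy was not tested.

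**Figure D3:**
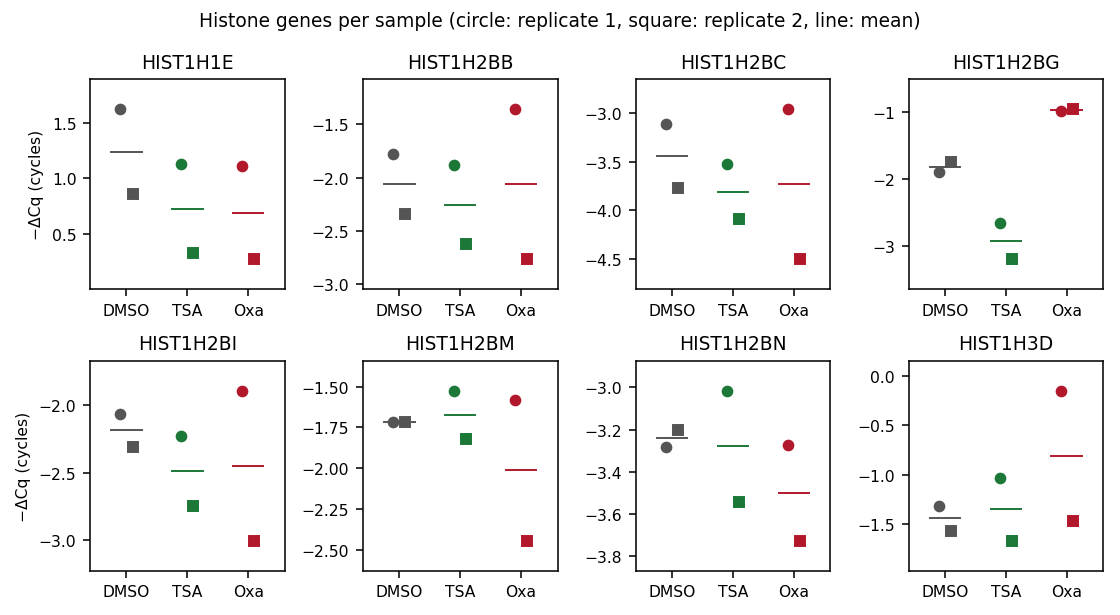
−ΔCq in cycles of the 8 histone genes in the DMSO, TSA and oxamflatin (Oxa) samples, on a separate vertical scale for each gene, with circles for replicate 1, squares for replicate 2 and lines for the mean. In 7 genes the groups overlap and replicate 1 is mostly the higher, whereas in HIST1H2BG all 3 pairs stand apart, TSA lowest and oxamflatin highest.

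A window was at hand for 12 of 13 genes higher in oxamflatin, 7 of 12 lower and 29 of 36 that did not pass. CEBPD, E2F8, PHLDA3, TNFRSF17 and TRIM22, which fell, had none. The GC box was found in the window of 11 of 12 genes that were higher, of 5 of 7 that were lower and of 17 of 29 that did not pass. Over the panel it was in 33 of 48. These counts describe a small panel and were not tested. The CCAAT box stood in 7 of 12, 2 of 7 and 13 of 29. The windows of PTGER4 and CDKN1A held 4 GC boxes each, and their log2 fold changes in oxamflatin were 1.98 and 0.55.

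Set among all 29 treatments, TSA and oxamflatin were far apart. By number of genes called against the own vehicle TSA was 28th of 29, above docetaxel with 0, and its median absolute log2 fold change was the smallest of the 29, while oxamflatin was 17th. Treatments in DMSO share the vehicle samples, and among those 10 oxamflatin was 6th and TSA 9th. The DDI agents of this vehicle, camptothecin, etoposide, 5-fluorouracil and cisplatin, had 42, 40, 39 and 30 genes called, mostly higher (21 higher and 9 lower in cisplatin), whereas the calls of oxamflatin were nearly balanced in the main fit. That balance depended on the scaling. Oxamflatin had 17 higher and 9 lower with HPRT alone, 17 and 10 with the panel median and 20 and 11 against all vehicles, but 9 and 14 with GUSB alone.

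**Figure D4:**
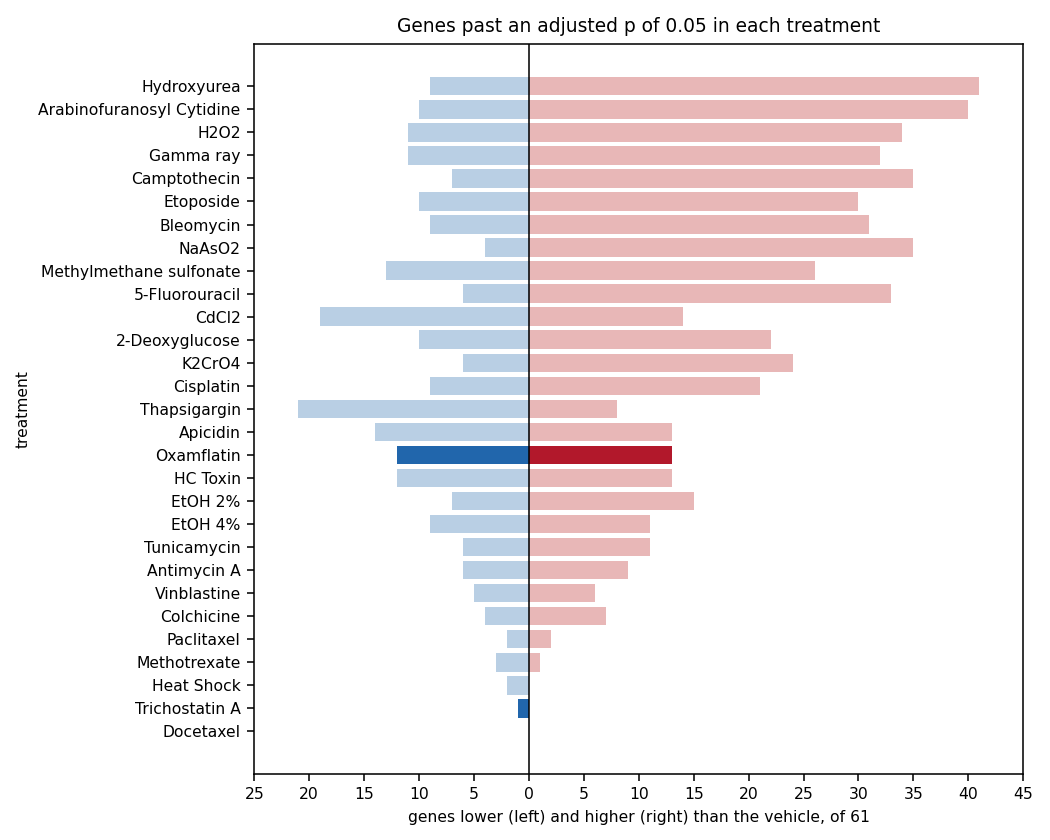
Number of the 61 panel genes past an adjusted p of 0.05 in each of the 29 treatments against its own vehicle (n = 2 replicates each), with genes lower to the left and genes higher to the right, and TSA and oxamflatin in dark colours. Oxamflatin shows 13 higher and 12 lower genes, and TSA shows 1 lower.

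Over the 25 treatments other than the 4 deacetylase inhibitors, 9 of the 12 genes that fell in oxamflatin were more often called higher than lower (75.0%), against 40 of all 61 panel genes (65.6%). CEBPD (2 higher and 7 lower), TOPORS (4 and 7) and TNFRSF17 (4 and 5) were more often called lower, and AMER1 was nearly even (8 and 7). PHLDA3 was called higher in 14 and lower in 2, with a lowest log2 fold change of −0.84 in antimycin A, against −1.50 in oxamflatin. AEN was called higher in 14 and TRIM22, BLOC1S2 and DCP1B in 13 each, and none of these 4 was called lower in any of the 25. In apicidin and HC toxin all 4 were called lower. AEN was at −0.98 and −1.10, TRIM22 at −1.01 and −0.75, BLOC1S2 at −0.72 and −0.51, and DCP1B at −0.67 and −0.39. CEBPD, COIL and LCE1E had their lowest value of all 29 treatments in oxamflatin, and E2F8 had its lowest in oxamflatin and apicidin alike, at −2.01 in each. Apicidin was close behind for CEBPD and COIL. For LCE1E thapsigargin was next at −0.88, below apicidin at −0.80, and among the 25 it was called lower in 5 and higher in 13. DMSO was 0.64 above the other vehicles in LCE1E, and against the mean of all vehicles its value in oxamflatin was −0.36. CEBPD was at −2.80 in oxamflatin, −2.74 in apicidin and −2.40 in HC toxin, and the values of the others in these agents are given below. For COIL the lowest of the other 25 was −0.82 in thapsigargin, which empties calcium stores, against −1.93. These are ranks and counts over treatments that differ in dose and partly in vehicle, with no test of the difference.

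Of the 13 genes that rose in oxamflatin, 6 were more often called higher over the 25 treatments (46.2%) and 7 more often lower (53.8%), against 18 of all 61 panel genes more often lower (29.5%). PTGER4 was nearly even, with 7 higher and 8 lower. RAPGEF2 and DAAM1 were each called lower in 13 of the 25 and ID2 in 12, with medians of −0.39, −0.61 and −0.26, against 1.15, 1.25 and 0.77 in oxamflatin. The rises were not particular to oxamflatin. In apicidin and HC toxin, RAPGEF2 was at 1.30 and 1.40, DAAM1 at 1.45 and 1.02, and ID2 at 1.18 and 1.25. SEL1L in oxamflatin was 3rd highest of the 29, and the highest of the 25 was tunicamycin at 2.19, an agent that blocks protein glycosylation in the endoplasmic reticulum. BTG2 and PLK3 were called higher in 15 and 14 of the 25, up to 3.68 and 3.04 in camptothecin, above the 0.84 and 0.85 of oxamflatin, and CDKN1A in 12, up to 3.27 in NaAsO2.

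The cyclic tetrapeptides apicidin, at 1 µg/ml on the same DMSO samples, and HC toxin, at 20 ng/ml on a methanol vehicle, also block histone deacetylases, and their values stand beside those above at other doses. Apicidin had 27 genes called, 13 higher and 14 lower, and HC toxin 25, 13 higher and 12 lower. PTGER4 was at 1.98 in oxamflatin, 2.01 in apicidin and 2.06 in HC toxin, E2F8 at −2.01, −2.01 and −1.84, COIL at −1.93, −1.80 and −1.58, and PHLDA3 at −1.50, −1.61 and −1.40. CDKN1A was at 0.55, 1.13 and 0.90, and LCE1E at −0.92, −0.80 and −0.16. TSA, at −0.18, −0.15, −0.04, −0.11, −0.11 and −0.01 for these 6 genes, was the only deacetylase inhibitor of the 4 with fewer than 25 genes called, and no second dose of it was measured. Since HC toxin alone had its own vehicle, its values do not share the DMSO samples of the other 3 compounds. DMSO itself stood 0.64 above the other vehicles in LCE1E, 0.44 above in E2F8 and 0.64 below in PTGER4. Gaps between HC toxin and the compounds in DMSO may hold such offsets, which was not tested.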

How the data were processed

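The deposited table holds 1 Cq (PCR cycle number) per gene and sample. Per the labels, the authors reverse transcribed total RNA and ran TaqMan assays on plates for 40 cycles. A further deposited table holds the authors' own fold changes against vehicle and was not used. The columns were matched to samples by the sample number in the labels, and 0 columns were left unmatched. Cq values were subtracted from the mean of HPRT and GUSB, and limma 3.58.1 in R 4.3.3 fitted 1 coefficient for each of 38 conditions to all 76 samples (38 residual degrees of freedom). Each compound was contrasted with DMSO, with Benjamini-Hochberg adjustment over the 61 genes. The 2 contrasts share their DMSO samples. The fit was tested on simulated data. Gene function lists cover the panel, and the compounds and the lists were chosen with earlier results of these data known. Named genes were the 12 highest and 12 lowest called genes per compound, the histone genes, CDKN1A, GADD45A, MDM2 and BRMS1L, with other genes by value. DUSP14 was the 13th higher gene and was named as well. Promoters were matched by symbol (51 genes) or synonym (7 genes), and 3 were not matched. Alternatives were the reference genes, the vehicle, the samples in the fit, a replicate block, a filter at a mean Cq of 32, repeated Cq values, a trend in the moderation, the adjustment and left-out replicates. Python 3.11.15 with matplotlib 3.10.9 made the figures.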

Additional observations from a re-analysis of the deposited data

How the results depend on the processing

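With 2 replicates per group each value rests on few samples, and CEBPD and USP41 had Cq values over 32. Of the 24 genes called in oxamflatin under the rule for naming, 17 kept their call in every alternative, 7 lost it in at least 1 (HIST1H2BG, C12orf5, ITPR1, CDKN1A, TRIM22, BLOC1S2 and DCP1B) and 0 changed sign. Of the other 10 named genes in oxamflatin and the other 11 in TSA, 0 gained a call.

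The TSA count of 1 became 0 with HPRT alone, with the panel median, with only the 6 samples or only the DMSO samples in the fit, and with genes of any repeated Cq left out. It was also 0 with the 11 genes repeated between DMSO and medium left out, an alternative chosen after seeing the data. In these fits 1 to 2 genes had an unadjusted p under 0.05. Against the mean of all vehicles it was 3 (ACTA2 at 0.44 and LCE1E at 0.55 higher, PTGER4 at −0.75 lower), none of them HIST1H2BG. There the TSA medians were 0.17 for p53 targets, 0.11 for transcription and cell cycle and 0.13 for RNA metabolism. Leaving out replicates gave 0 to 1.

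The filter for any repeated Cq dropped 43 of 61 genes. A single value equal to that of any sample of the same replicate number was enough. Such matches were common, as 563 of 2850 sample pairs shared exactly 1 gene. In oxamflatin 11 of the 18 genes left were called, against 25 of all 61, and with them the medians were −0.05 for signalling (4 genes), −1.25 for transcription and cell cycle (2 genes, CEBPD and SERTAD1) and −1.93 for RNA metabolism (1 gene, COIL). With HPRT alone the medians were 0.12 for p53 targets, 0.63 for signalling, 0.14 for transcription and cell cycle and −0.038 for RNA metabolism, and with GUSB alone −0.26, 0.25, −0.24 and −0.41. The p53 median was 0.26 against all vehicles. With the acetonitrile vehicle left out of the fit, also chosen after seeing the data, the same 25 genes and 1 in TSA were called. Leaving out replicates gave 20 to 22 genes called, and organelle and membrane medians of −0.17 to 0.27.

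With a replicate block 28 genes were called in oxamflatin, all 25 among them, and 1 in TSA (HIST1H2BG, limma adjusted p = 0.00363). The replicate deviations correlated with those of DMSO at −0.164 for TSA and 0.411 for oxamflatin over 61 genes. Without the histone genes these were −0.585 and 0.638, so the compounds differed and the correlations do not settle the pairing. Per the methods, solvent controls were prepared together with treated samples. Whether a replicate number marks the same occasion in both is not stated, and the main fit was unpaired.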
